A study of Mus musculus with 12 samples.

Results

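The genes described here encode proteins that hold synapses and axons together. They are 53 synaptic adhesion and axon contact genes, named by symbol and grouped by role, out of 21523 protein-coding genes in a RefSeq table of GRCm38.p6, the assembly behind mm10. The measurement is a list of c-Fos peaks from the CA1 field of the mouse hippocampus. CUT&RUN, in which an antibody guides a nuclease to release bound DNA for sequencing, was run on 50000 nuclei per reaction. All 12 samples came from C57BL/6 mice aged 3 to 4 weeks of genotype CaMK2a-Cre/+; LSL-Sun1-GFP/+, in which Cre switches on a green tag of the nuclear envelope. Tagged nuclei were sorted, so the profile covers cells in which the CaMK2a promoter had driven Cre, chiefly excitatory neurons. Kainic acid, an agonist of glutamate receptors that sets off intense firing, or phosphate buffered saline (PBS) was given 2 to 3 h before, and each treatment was profiled with a c-Fos antibody and with rabbit IgG, in 3 replicates each. How many animals made up a replicate is not stated. The list holds peaks called replicated, of c-Fos against IgG after kainic acid, and of its 3295 peaks the 3294 on chromosomes 1 to 19 and X were used. It has no score and no value per library, so neither read depth nor the spread between replicates can be given. The cell type could not be checked against marker levels, because a peak list holds none, and PBS binding was not analysed here.

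Synapses are aligned by proteins that reach across the cleft. Presynaptic neurexins and receptor phosphatases of the LAR type bind postsynaptic neuroligins and leucine-rich repeat proteins (LRRTM, SLITRK and LRFN), while teneurins bind latrophilins, which also bind FLRT proteins. Contactins and Caspr proteins organise axon membranes and their contacts, SynCAM proteins are immunoglobulin-type adhesion molecules, and cadherins join like cells through calcium-dependent binding. c-Fos pairs with Jun proteins to form AP-1, a transcription factor induced by neuronal firing.

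A peak was linked to a gene when its midpoint lay inside the gene or within 100 kb of either end. Of the 53 genes, 24 had a linked peak (45.3%, exact binomial 95% interval 31.6 to 59.5), and 16 had a peak inside (30.2%). Over all protein-coding genes the shares were 21.8% and 5.52%. The members are long genes, with a median of 220.4 kb against 17.4 kb for all protein-coding genes. Each member was therefore set beside every other protein-coding gene between 20% shorter and 25% longer than itself, called genes of like length below. Summed over members, the shares of such genes give 24.9 genes with a linked peak and 18.6 with a peak inside. The adhesion genes thus had peaks about as often as genes of like length.

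The number of peaks was lower in a comparison of means, which lean on a few genes with many peaks. For single members, the median of genes of like length lay between 0 and 2 peaks inside. The members held 29 peaks inside, and the means of genes of like length add up to 47.5, a ratio of 0.610 (exact Poisson 95% interval 0.409 to 0.876). With the flanks the figures were 41 and 60.1 peaks, a ratio of 0.682 (0.489 to 0.925). These intervals cover counting error over peaks only, not sequencing error, replicates or the spread between genes, and no test was made. No member held more than 4 peaks. Of the 210 other genes of at least 500 kb, 18 (8.57%) held more, up to 26 in Dlgap1, which encodes a postsynaptic scaffold protein. A count of 4 or more was found in 10% of those genes and in 3 of the 17 members of that length. When the 6 comparison genes with 10 or more peaks were left out, an alternative added with the values in view, the ratio inside genes was 0.731 (0.490 to 1.05).

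**Figure D1:**
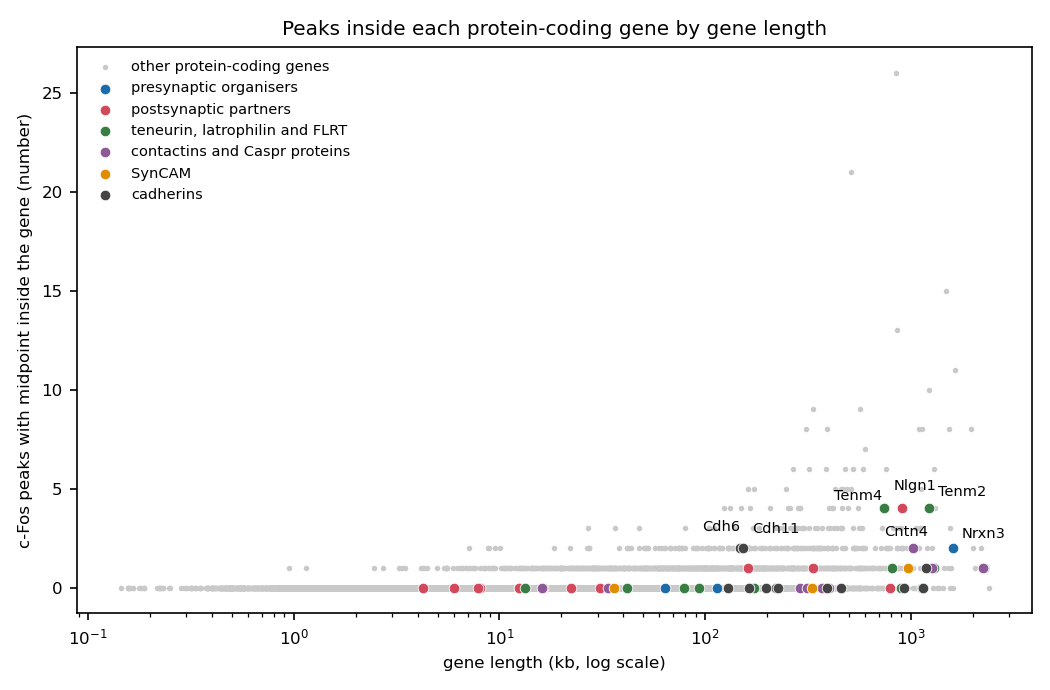
Each point is 1 protein-coding gene, with its length in kb on a log axis and the number of c-Fos peak midpoints inside it on the other axis; coloured points are the 53 adhesion genes by role and grey points all others. The adhesion genes reach 4 peaks, at Nlgn1, Tenm2 and Tenm4, while a few grey genes of 500 kb or more stand far above them.

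Longer members had peaks more often. Of the 17 genes shorter than 100 kb, none had a peak inside (2.61% of other genes in that class) and 3 had a linked peak (17.6%, others 19.2%). Among the 19 genes of 100 to 500 kb, 4 had a peak inside (21.1%, others 24.8%) and 8 a linked one (42.1%, others 39.9%). Among the 17 genes of 500 kb or longer, 12 had a peak inside (70.6%, others 62.9%) and 13 a linked one (76.5%, others 68.1%). These longest genes held 23 of the 29 peaks inside members, at a pooled 0.112 peaks per 100 kb of gene length against 0.209 for other genes of that class. The pooled value of the others includes the 6 genes with 10 or more peaks. The median densities over genes of that class were 0.0787 in members and 0.129 in others. Over all 53 members the pooled density was 0.113 per 100 kb (exact Poisson interval 0.0755 to 0.162), and over all other protein-coding genes it was 0.169. The median density was 0 in members and in all protein-coding genes alike. In the 16 members with a peak inside, density ran from 0.0440 to 1.35 per 100 kb, with a median of 0.160.

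**Figure D2:**
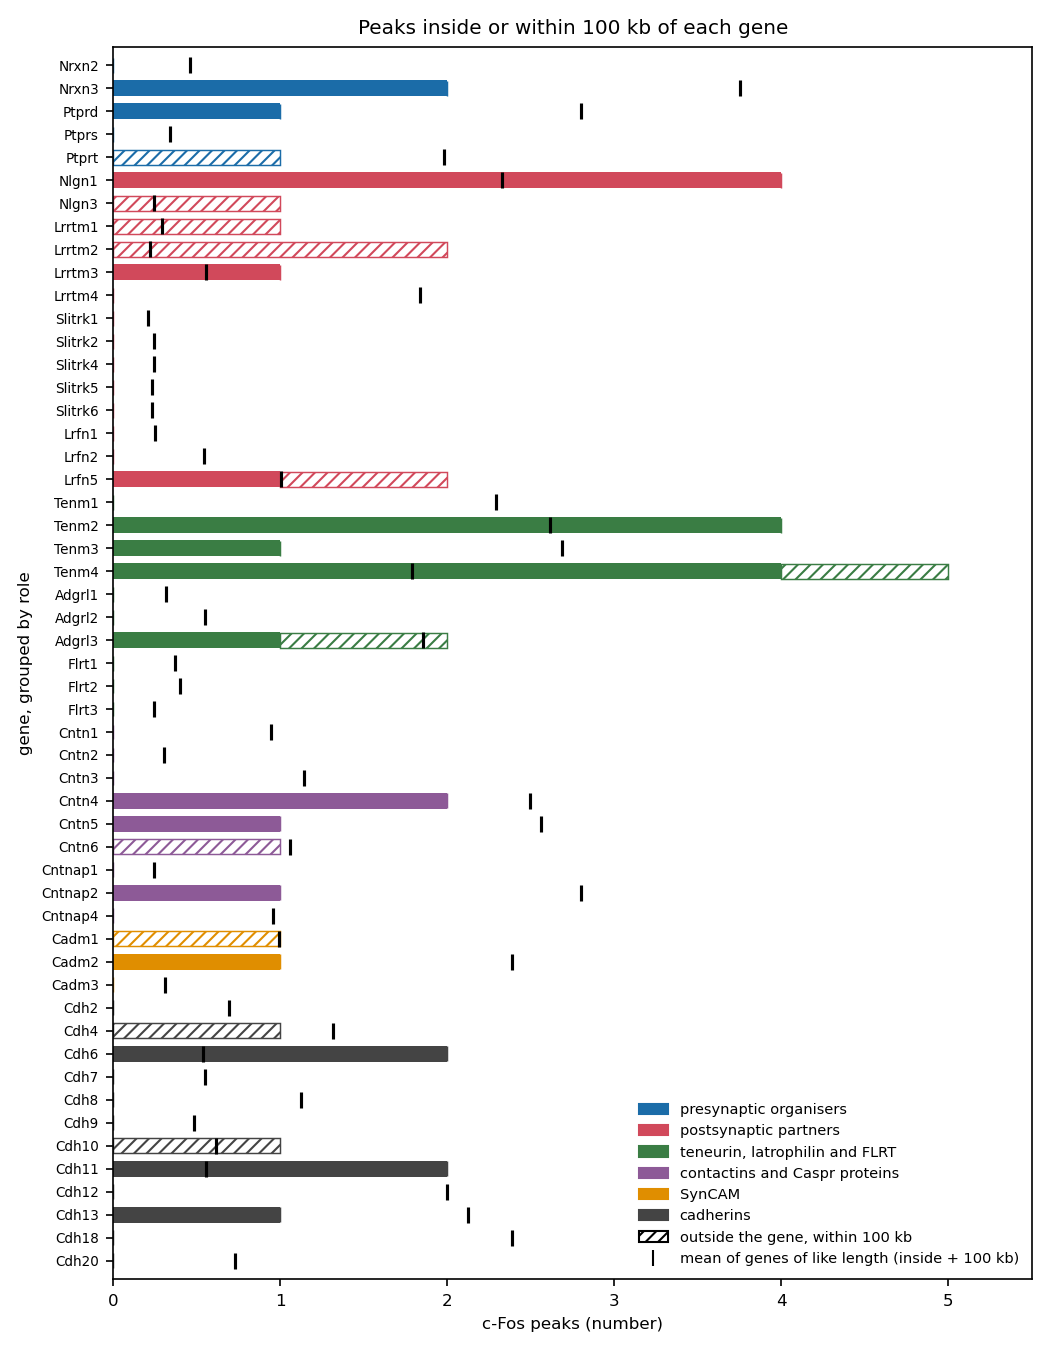
Bars give the number of c-Fos peaks for each of the 53 genes, filled for peaks inside the gene and hatched for peaks outside it within 100 kb; black ticks give the mean of genes of like length, inside and flanks together. Tenm4 has the longest bar, with 5 linked peaks, and 29 genes have no bar.

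Among the presynaptic organisers, 3 of 5 genes had a linked peak, against 2.79 from genes of like length, and none of these peaks lay closer to a gene end than the 77.1 kb of Ptprt. The group held 3 peaks inside against 8.40 from genes of like length (ratio 0.357, interval 0.0737 to 1.04). Nrxn3 encodes a neurexin, the presynaptic hub that binds neuroligins and LRRTM proteins, and spans 1612 kb of chromosome 12. Its 2 peaks (89695739 to 89697227 and 89710355 to 89711045) lay 14.2 kb apart, at 60.4% and 61.3% of the way from the 5′ end. They were 116 and 102 kb upstream of the nearest transcript start listed for the gene. Only 16 genes are of like length to Nrxn3, and they held a median of 1.5 and a mean of 3.75 peaks, so the mean leans on a few of them. Ptprd, which encodes a receptor phosphatase of the LAR type that binds SLITRK proteins, is the longest member at 2271 kb. It held 1 peak (chromosome 4, 77512774 to 77513333), 699 kb from the nearer end, and this was the narrowest of all peaks inside members at 560 bp. For Ptprd and for Cntnap2 only 5 genes are of like length, with a median of 2 peaks. Ptprt, a receptor phosphatase with adhesive contacts between like molecules, had no peak over 1139 kb and 1 peak 77.1 kb upstream of its listed start. Nrxn2 and Ptprs had none within 100 kb, and their nearest peaks were 572 and 555 kb away.

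The postsynaptic partners had 6 of 14 genes with a linked peak, against 4.43 from genes of like length, and 6 peaks inside against 5.11 (ratio 1.17, interval 0.431 to 2.56). Nlgn1 held the most of this group. It encodes neuroligin 1, the neurexin partner of excitatory synapses, and had 4 peaks over 911 kb of chromosome 3. They lay 137, 330, 699 and 735 kb from the 5′ end, and the last pair (25597022 to 25598092 and 25633255 to 25635134) was 36.6 kb apart. Its density was 0.439 per 100 kb (0.120 to 1.12), and 10.0% of the 70 genes of like length held as many peaks or more. Only 1 of the 4 reached the median width of the whole list. The first of the 4 lay 41.4 kb upstream of an internal transcript start listed for Nlgn1. Nlgn3, another neuroligin gene, is only 22.2 kb long and had 1 peak 11.2 kb beyond its end of higher coordinate (X chromosome, 101332173 to 101332945). That chromosome held just 21 peaks, and 4.57% of its 963 protein-coding genes had a linked one, so Nlgn3 is among 44 such genes there.

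The LRRTM genes encode leucine-rich repeat proteins that bind neurexins from the postsynaptic side, and 3 of them lie within genes for alpha-catenins, the proteins that tie cadherins to actin. Lrrtm1 lies in Ctnna2, Lrrtm2 in Ctnna1 and Lrrtm3 in Ctnna3. Each of these LRRTM genes had a linked peak that was also inside its catenin gene, so the position alone does not tell which gene a peak belongs to. With each peak counted only for its nearest gene, Lrrtm1 and Lrrtm2 had 0. At Lrrtm2 the peak (chromosome 18, 35214657 to 35215785) ran across the gene's end of higher coordinate, with its midpoint 0.197 kb beyond it, and it was the only peak inside Ctnna1. None lay inside Lrrtm2 itself, which is 6.02 kb long. A second peak linked to Lrrtm2 lay 84.6 kb away inside Sil1. At Lrrtm3 the peak (chromosome 10, 64001425 to 64002855) was inside the gene, 88.1 kb downstream of the listed start, and it was the only peak in the 1574 kb of Ctnna3. At Lrrtm1 the peak lay 48.3 kb upstream of the listed start (chromosome 6, 77193816 to 77194509), and Ctnna2 held 2 in all. Lrrtm4, the longest of the family at 791 kb, had none, and its nearest peak was 604 kb away.

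The remaining postsynaptic families were mostly without peaks. Lrfn5, which encodes a synaptic adhesion protein that binds phosphatases of the LAR type, had 2 peaks. The first (chromosome 12, 61515164 to 61516264) lay 7.45 kb upstream of the listed start, and the second (61842127 to 61843466) at 95.5% of the gene's length, 15.1 kb from its 3′ end. The density inside was 0.298 per 100 kb (0.00756 to 1.66), and 42.0% of 336 genes of like length held as many peaks or more. Neither peak reached the median width of the list. Lrfn1 and Lrfn2 had none. None of the 5 SLITRK genes had a linked peak. All 5 are short, between 4.25 and 12.46 kb, and genes of like length add up to 0.911 genes with a linked peak, so 0 lies close to that figure. Slitrk5 and Lrfn2 were the members closest to the 100 kb limit from outside, each with its nearest peak 106.0 kb away, and Cadm1 (84.7 kb) and Lrrtm2 (84.6 kb, second peak) the closest from inside. Slitrk6 (202 kb) and Slitrk1 (1102 kb) were farther, as were Slitrk2 and Slitrk4 on the X chromosome, at 2880 and 5264 kb.

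Teneurin genes carried the most peaks of any family here. Teneurins are very large transmembrane proteins that bind latrophilins across the synapse and guide the matching of axons to targets. The 4 genes held 9 peaks inside, against 8.65 from genes of like length (ratio 1.04, interval 0.476 to 1.98). Tenm4 had 5 linked peaks, of which 4 were inside its 740 kb on chromosome 7, at 304, 351, 540 and 649 kb from the 5′ end. The fifth (96119871 to 96120956) lay 50.8 kb upstream of the listed start. Of the 5, 1 reached the median width of the list. Its density of 0.541 per 100 kb (0.147 to 1.38) rested on a count that 5.88% of 85 genes of like length reached or passed. Tenm2 held 4 peaks over 1230 kb of chromosome 11, at 310, 472, 848 and 884 kb from the 5′ end, of which 2 reached the median width. The first (36926477 to 36927404) was 17.3 kb downstream of the only start listed for Tenm2, which is internal to the gene. For Tenm2, 20.5% of 39 genes of like length held as many or more. Tenm3, at 1297 kb, held 1 peak (chromosome 8, 48774090 to 48775152), fewer than the mean of 2.58 but at the median of 1 of its 38 genes of like length. Tenm1, on the X chromosome, had none, and its nearest peak was 955 kb away.

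Latrophilin and FLRT genes had few peaks, as did genes of like length. Of the 3 latrophilin genes, 1 had a linked peak against 1.32 from genes of like length, with 1 peak inside against 1.93. Of the 3 FLRT genes, 0 had a linked peak against 0.757. Adgrl3 encodes a latrophilin, an adhesion G protein-coupled receptor of the postsynaptic side. It had 1 peak inside (chromosome 5, 81255540 to 81257054), 235 kb downstream of a listed start, and 1 peak 16.1 kb past its 3′ end. Adgrl1 and Adgrl2 had no linked peak, with the nearest 560 and 1132 kb away. Flrt1, Flrt2 and Flrt3, whose products bind latrophilins, had none, and Flrt3 was closest to a peak at 112 kb.

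Contactin and Caspr genes held fewer peaks than the means of genes of like length add up to. The 9 genes had 4 peaks inside against 10.4 (ratio 0.384, interval 0.105 to 0.984). A linked peak was found at 4 of them against 4.94, and a peak inside at 3 against 4.03. The means lean on a few genes with many peaks. The median of genes of like length was 1 for Cntn4 and for Cntn5, 2 for Cntnap2 and 0 for the rest. Cntn4 encodes an axonal immunoglobulin-type protein anchored to the membrane by a lipid. It held 2 peaks over 1023 kb of chromosome 6, 604 and 796 kb from the 5′ end (106281148 to 106282970 and 106473625 to 106474385), and 42.6% of 61 genes of like length held as many or more. Cntn5, a relative, held 1 at 53.1% of its length (chromosome 9, 10229319 to 10230452). Cntn6 had none inside and 1 peak 27.6 kb past its 3′ end. Cntnap2, which encodes a Caspr protein that clusters potassium channels along axons, held 1 peak over 2241 kb, 336 kb downstream of its listed start (chromosome 6, 45395809 to 45396600). Cntn1, Cntn2, Cntn3, Cntnap1 and Cntnap4 had none, with nearest peaks between 293 kb (Cntn1) and 938 kb (Cntnap4).

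Among the SynCAM genes, Cadm2 had the peak closest to a listed start inside any member. This peak (chromosome 16, 67610752 to 67612074) lay 9.50 kb downstream of the start, and the gene, 966 kb long, held no other. Genes of like length to Cadm2 held a median of 1 and a mean of 2.13 peaks, and the density of Cadm2 was 0.104 per 100 kb (0.00262 to 0.577). The peak was narrower than the median of the list. Cadm1 had 1 peak 84.7 kb outside the gene, and Cadm3 had none within 1230 kb.

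Cadherin genes had linked peaks at 5 of 12, against 6.14 from genes of like length, and 5 peaks inside against 9.86 (ratio 0.507, interval 0.165 to 1.18). Of these 5 peaks, 4 lay in Cdh6 and Cdh11, genes of 148 and 153 kb. Cdh6 encodes a type II cadherin and held 2 peaks in 148 kb of chromosome 15 (13041731 to 13043005 and 13046575 to 13048590). They were 5.22 kb apart, the closest neighbours inside any member, and lay near the 3′ end at 90.7% and 87.2% of the gene. Its density of 1.35 per 100 kb (0.164 to 4.89) was the highest of the 53 genes, but with close neighbours chained and counted once Cdh6 had 1 peak and Cdh11 still 2. Cdh11, also a type II cadherin, held 2 peaks in 153 kb of chromosome 8 (102693177 to 102694312 and 102725052 to 102726529), which were 32.1 kb apart. As many or more were found in 4.37% of the 847 genes of like length to Cdh6 and in 4.43% of the 813 for Cdh11. Cdh13, which encodes a cadherin without a cytoplasmic part, held 1 peak over 1185 kb (chromosome 8, 118951247 to 118953353), and at 2107 bp it was the widest inside a member. Cdh10 had 1 peak 14.1 kb past its 3′ end, and Cdh4 had 1 peak 48.7 kb outside, within Taf4. The other 7 had none within 100 kb. They include Cdh2, which encodes N-cadherin (nearest peak 156 kb away), and the long genes Cdh12 (1150 kb in length, nearest 225 kb) and Cdh18 (929 kb in length, nearest 427 kb). Cdh7, Cdh8, Cdh9 and Cdh20 had theirs between 338 and 1678 kb away.

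**Figure D3:**
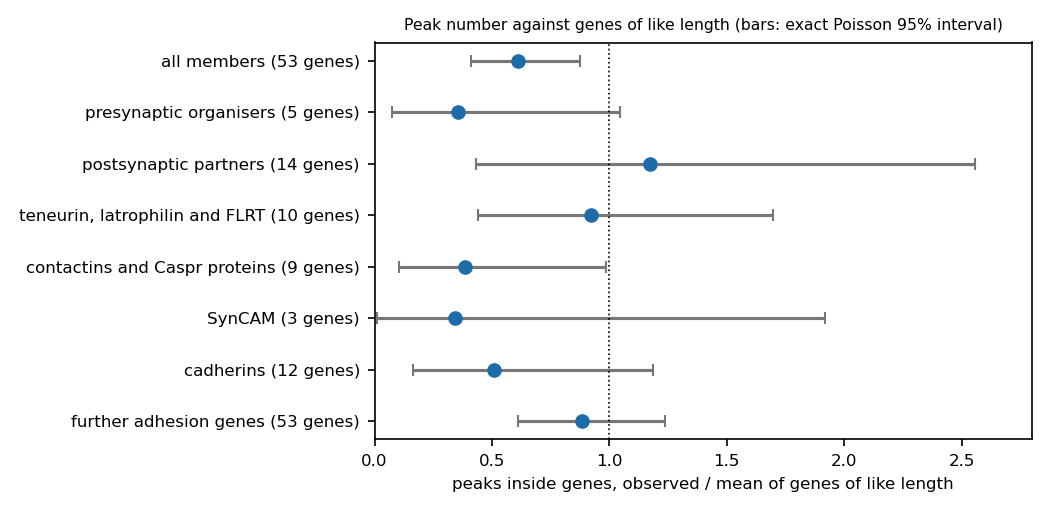
Points give the peaks inside genes divided by the sum of the means of genes of like length, for all 53 genes, for each role and for 53 further adhesion genes, and bars are exact Poisson 95% intervals. The dotted line marks a ratio of 1, which lies outside the interval for all members (0.409 to 0.876) and for contactins and Caspr proteins (0.105 to 0.984) and inside the others.

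The position of peaks within these genes was looked at next, because the distance to a promoter differs widely in long genes. Of the 29 peaks inside members, 21 were more than 100 kb from both ends of the gene, with a median of 304 kb to the nearer end (9.50 to 699 kb). Members of 500 kb or longer held 23 of the 29, and these distances were not measured for peaks inside other genes. Transcript starts were listed for 38 of the 53 genes. For several of the 38, among them Tenm1, Tenm2, Tenm3 and Cntn4, every listed start was internal to the gene, so a promoter at the 5′ end was not covered. None of the 32 linked peaks of these genes overlapped a 300 bp promoter window of its gene, a count that was not made for other genes. The closest to a listed start were the peaks of Lrfn5 and Cadm2. The other 9 linked peaks, among them the one across the end of Lrrtm2, could not be placed against a start. Of 25 inside peaks in genes with a known strand, 9 lay nearer the 5′ end and 16 nearer the 3′ end. Peaks inside other genes were not split in this way. In genes with several peaks, the 13 gaps between neighbours had a median of 109 kb, and 1 gap, in Cdh6, was within 10 kb. Of the 12 linked peaks outside members, 4 lay inside another protein-coding gene. No peak was linked to more than 1 member. Peaks inside members were 1236 bp wide at the median (quartiles 1063 and 1515 bp), against 1376 bp for all 1718 peaks inside protein-coding genes. Of the 41 linked peaks, 14 reached the median width of the whole list (34.1%, exact binomial interval 20.1 to 50.6).

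**Figure D4:**
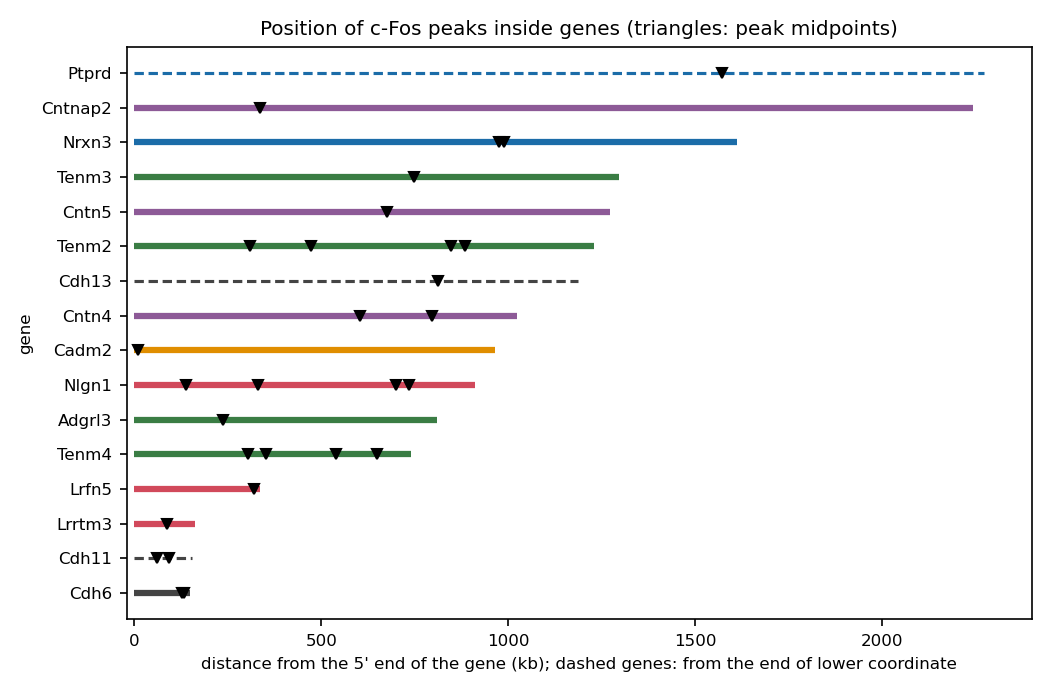
Lines are the 16 adhesion genes with a peak inside, drawn to scale in kb from the 5′ end and coloured by role, and triangles are peak midpoints; dashed genes run from the end of lower coordinate because no strand was listed. Cadm2 is the gene with a triangle within 10 kb of its 5′ end.

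Promoter letters were read from the RefSeq windows (GRCm38.p6), which run from 250 bases before to 50 after each listed start, to see whether the AP-1 sequence was present where peaks were or were not near. TGACTCA and TGAGTCA, the forms of the AP-1 site on the opposite strands, occurred in 2 of 54 windows of members (3.70%) and in 4.69% of 21045 windows of protein-coding genes. TGACGTCA, the cAMP response element, which reads alike on both strands and cannot overlap an AP-1 match in full, occurred in 3 windows (5.56%) against 2.26%. The windows of Lrfn5 and Cadm2, which have the nearest peaks among these, held neither. The AP-1 letters were in the windows of Slitrk6 and Cadm3, neither of which had a linked peak, and the response element was in those of Tenm3, Ptprs and Slitrk2. A match is a description of letters and not a measured site. The sequences are printed 5′ to 3′ on the strand of the gene, upstream of the start only, with the matched letters in capitals. Those of Lrfn5 (chr12:61522917-61523166, plus strand) and Cadm2 (chr16:67620909-67621158, minus strand) are shown as the promoters closest to a peak among genes with a listed start. Those of Slitrk6 (chr14:110755150-110755249), Cadm3 (chr1:173367832-173367931) and Tenm3 (chr8:48674691-48674790), all on the minus strand, are shown for their matches, which begin 18, 186 and 63 bases before the start.
Lrfn5: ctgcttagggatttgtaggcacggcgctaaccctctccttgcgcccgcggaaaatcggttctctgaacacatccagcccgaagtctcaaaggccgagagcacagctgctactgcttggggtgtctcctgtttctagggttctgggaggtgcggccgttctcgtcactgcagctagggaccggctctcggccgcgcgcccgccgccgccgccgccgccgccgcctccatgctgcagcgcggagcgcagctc
Cadm2: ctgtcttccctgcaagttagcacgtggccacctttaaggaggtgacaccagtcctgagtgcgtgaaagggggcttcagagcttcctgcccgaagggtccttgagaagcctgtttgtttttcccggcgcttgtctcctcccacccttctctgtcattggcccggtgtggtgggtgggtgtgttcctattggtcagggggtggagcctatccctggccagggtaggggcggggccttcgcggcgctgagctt
Slitrk6: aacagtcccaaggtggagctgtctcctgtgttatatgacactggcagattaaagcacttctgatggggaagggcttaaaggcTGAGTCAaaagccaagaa
Cadm3: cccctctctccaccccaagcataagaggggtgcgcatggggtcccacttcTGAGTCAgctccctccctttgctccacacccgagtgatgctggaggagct
Tenm3: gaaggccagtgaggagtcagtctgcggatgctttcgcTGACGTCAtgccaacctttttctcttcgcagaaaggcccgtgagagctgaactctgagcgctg

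Beyond the 53 members, 53 further adhesion genes were counted in the same way, from a list of absent family members, ligands and partners, immunoglobulin-type axon proteins and catenins. Their genes of like length left out both lists, whereas those of members left out the members only. Of the further genes, 22 had a linked peak (41.5%, interval 28.1 to 55.9) against 22.5 from genes of like length. They held 34 peaks inside against 38.5 (ratio 0.884, interval 0.612 to 1.24), and the difference between the 2 lists was not tested. Opcml, which encodes a lipid-anchored protein of the IgLON family, held 8 peaks over 1135 kb, and 5.13% of its genes of like length held as many or more. Clstn2, encoding a calsyntenin, a postsynaptic relative of cadherins, held 6 over 589 kb, at 1.02 per 100 kb (0.374 to 2.22). Lrrc4c, encoding a postsynaptic ligand of netrin-G1, held 4 over 1314 kb, and Ntng1, the netrin-G1 gene itself, had 1 peak 7.72 kb outside. The IgLON genes Negr1 and Lsamp and the catenin genes Ctnna2 and Ctnnd2 held 2 each. The means of their genes of like length were 1.575, 2.75, 1.69 and 1.77. Ntm, an IgLON gene of 968.5 kb, held none inside against a mean of 2.07. Unc5a, a netrin receptor gene, had 1 peak inside its 60.9 kb, and Clstn3 had 1 peak 15.3 kb outside. The relatives Unc5b, Unc5c and Unc5d (69.0, 369 and 573 kb) had no linked peak. Of the 15 absent family members, close relatives of members, 3 had a linked peak against 5.44 from genes of like length. Among them Cntnap5b held 1 peak inside, and Cdh22 had 2 linked peaks and none inside. Nlgn2, Slitrk3, Lrfn3, Lrfn4, Cadm4 and Ptprf, which are between 3.88 and 83.2 kb long, had no linked peak. Longer relatives without a linked peak were Cntnap3 (166 kb), Cntnap5a (903 kb) and Cntnap5c (649 kb). Their genes of like length held means of 0.288, 2.11 and 1.06 peaks inside. Il1rapl1, a long gene of the X chromosome whose product binds the phosphatase encoded by Ptprd, and its relative Il1rapl2 had none either.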

How the data were processed

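Positions are the only measurement. The deposited list gives each peak's chromosome, start and end in bp in 3 columns with no header, and it was used for the group as a whole. The authors made it with SEACR 1.1, bedtools 2.27.1, Bowtie2 2.2.9 and Trimmomatic 0.36 and the builds mm10 and sacCer3, per the submitters' processing notes, which give no role or setting. How replicates were combined and which threshold applied is not stated, and weaker sites are missing from all counts.

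Starts were made 1-based. Protein-coding genes on 20 chromosomes were taken from RefSeq. A further 108 with starts under 3000000 were left out, since those coordinates appear to be of scaffolds. All 53 symbols of members and all 53 of further genes matched. Transcript starts and strand came from the RefSeq promoter table. Counting was done in Python 3.11.15 (numpy 2.4.6, pandas 2.3.3, scipy 1.17.1) and tested on simulated data. Intervals are exact at 95% and cover counting error only. No test was run, since 1 list allows none over samples. Every member is accounted for. The rule gave full values for members with 3 or more peaks inside or a midpoint at most 10 kb from either end. Cdh6 and Cdh11 got them after their values were seen. Of the further genes, up to 6 with most peaks inside and up to 4 with the nearest peak were to be named, and others were named after their values were seen. A gene that this rule takes in is not reported here. Members and lists were chosen with earlier results of these data known. Alternatives changed the link distance, the part of a peak used, the peaks, the gene a peak counts for, the comparison genes and the chromosomes.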

Additional observations from a re-analysis of the deposited data

How the results depend on the processing

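No paired analysis was possible because the list has no values per replicate, so no replicate could be left out either. Over 12 alternatives, of which leaving out comparison genes with 10 or more peaks was chosen after seeing the data, peaks inside members were 0.449 to 0.731 times those of genes of like length. The median density stayed at 0. With peaks of at least median width, 12 members had a linked peak (15.3 from genes of like length) and 10 had one inside. Linked peaks were then 14 in place of 41 and 0.456 times those of genes of like length, and the cause was not tested. The median width of inside peaks was 1607 bp, by construction. In the other 11 alternatives, members with a linked peak were 16 (gene body only, 18.6 from genes of like length) to 24. With links within 50 kb they were 22 against 21.6, and within 10 kb 17 against 19.5. Further adhesion genes stayed between 0.871 and 1.09 times. Of 632 recounts of single members, 46 moved by over 1.5 times, 42 of them with wide peaks or shorter link distances. Depth is unknown, and for the longest genes few are of like length.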

Other observations

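Several members share a stretch of chromosome with relatives, and peaks there were counted without a test. Between the outer ends of Cdh6 and Cdh18 on chromosome 15, a span of 10.4 Mb that also holds Cdh9, Cdh10 and Cdh12, there were 8 peaks, 2 of them inside these genes. That is 0.766 per Mb (exact Poisson 95% interval 0.331 to 1.51), and the whole chromosome had 1.51 per Mb. The 4.54 Mb from Cntn3 to Cntn4 on chromosome 6, which includes Cntn6, had 3 peaks, or 0.661 per Mb (0.136 to 1.93) against 1.30 for the chromosome. Between Slitrk1 and Slitrk5 on chromosome 14, with Slitrk6 in between, 4 peaks lay in 2.77 Mb outside the 3 genes, or 1.44 per Mb (0.393 to 3.69) against 1.36. None of these 4 lay within 100 kb of the 3 genes. From Cdh8 to Cdh11 on chromosome 8, 3 peaks lay in 3.76 Mb, or 0.798 per Mb (0.1645 to 2.33) against 1.32. From Cdh20 to Cdh7 on chromosome 1, 6 peaks lay in 5.38 Mb, or 1.12 per Mb (0.4095 to 2.43) against 1.44.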
